A study of Homo sapiens with 33 samples.

Results

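The DNA replication genes examined here are 41 named genes of origin licensing, origin firing and fork synthesis, chosen by name from the 35805 genes of the RNA-seq table. Earlier results of these data were known when they were chosen. RNA-seq was made from SSEA4-positive, flow-sorted H9 cells, an established human embryonic stem cell (ESC) line, with 3 libraries for each of 4 genotypes. EZH2+/+ (WT) cells were unedited, EZH2-/+ (Het) cells carried a CRISPR/Cas9 frameshift deletion on one allele, EZH2-/- (Null) cells carried such deletions on both, and EZH2-/- +EZH2 (Null + EZH2, or rescued) cells had both alleles disrupted and expressed EZH2 from a doxycycline-inducible piggyBac transgene. The mutant lines are clones, the EZH2-/- cells were derived by way of EZH2-/+ cells that carried the transgene, and all were grown on mouse feeder cells, so genotype and clonal history cannot be told apart. Per the paper, the rescued cells received doxycycline to induce the transgene, so in them drug and EZH2 cannot be told apart either. Chromatin immunoprecipitation sequencing (ChIP-seq) of histone marks in the same genotypes gave values at the promoters of all 41 genes.

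EZH2 is the methyltransferase of Polycomb repressive complex PRC2, which places H3K27me3 on repressed promoters. DNA replication starts when the origin recognition complex, CDC6 and CDT1 load the MCM helicase onto DNA. The kinase CDC7 with DBF4, and the factors MCM10, CDC45 and GINS, then turn that helicase on, and polymerases, a sliding clamp and single-strand binding proteins copy the strands. Many of these genes are known to be transcribed around the G1 to S transition under E2F factors, and ESCs are known for rapid cycling with a short G1.

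RNA levels are given in RPM, the reads of a gene scaled to the library's total. The reads on genes ranged from 16587860 to 36589090 per library, and no replication gene had fewer than 397 reads in any library. EZH2 itself was at 68.6, 63.3 and 59.5 RPM in the 3 EZH2+/+ libraries, 55.4, 52.3 and 45.7 in EZH2-/+, 11.5, 8.65 and 9.68 in EZH2-/- and 271, 385 and 256 in rescued cells. The EZH2-/- libraries were therefore the lowest and the rescued libraries the highest, above EZH2+/+. All 6 pluripotency markers had reads in every genotype, with a summed level of 2119.8 to 2682 RPM in EZH2+/+ and 2908.8 to 3297 RPM in EZH2-/- libraries. The sum hides moves in both directions. By limma, described below, 2 were higher and 1 lower in EZH2-/- than in EZH2+/+, against 12.6% and 18.8% of all genes tested. Mean levels went from 680 to 1294 RPM for POU5F1, 22.2 to 88.1 for NANOG and 224 to 109 for SOX2. Lineage markers of differentiation, of which 10 were tested, summed to 241.5 to 326 RPM in EZH2+/+, 165 to 523 in EZH2-/- and 120 to 160 in rescued cells. Of these markers 7 were higher and 2 lower in EZH2-/- than in EZH2+/+, against 12.6% and 18.8% of all genes tested. Their part in the results below was not tested, and in bulk RNA fewer cells of a type and less RNA per cell cannot be told apart.

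Promoter sequence is shown for 3 genes that mark the contrasts in the results: CDC7, lower in EZH2-/- than in rescued cells, MCM6, a helicase gene called in no comparison, and POLE, whose promoter stood apart in EZH2 and H3K27me3 signal. Each is RefSeq sequence (GRCh38.p14) from the 250 bases before the start of transcription, 5′ to 3′ along the gene, limited to the longest stretch free of annotated untranslated regions. Capitals mark matches to TTCCCGC or TTGGCGC (forms of the E2F site) and to CCAAT, on either strand. The stretches lie at chr1:91500949-91501107 on the plus strand, chr2:135876444-135876693 on the minus strand and chr12:132687377-132687586 on the minus strand. In the POLE stretch an E2F form overlaps CCAAT matches.
CDC7: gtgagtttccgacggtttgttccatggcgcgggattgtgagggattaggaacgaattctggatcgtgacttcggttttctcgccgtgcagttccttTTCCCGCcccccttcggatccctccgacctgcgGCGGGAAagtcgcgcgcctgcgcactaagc
MCM6: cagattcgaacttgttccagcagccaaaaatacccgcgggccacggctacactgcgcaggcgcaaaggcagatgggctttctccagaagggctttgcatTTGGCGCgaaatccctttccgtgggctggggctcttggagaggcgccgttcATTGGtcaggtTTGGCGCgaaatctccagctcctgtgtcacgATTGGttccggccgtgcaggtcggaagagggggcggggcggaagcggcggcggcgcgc
POLE: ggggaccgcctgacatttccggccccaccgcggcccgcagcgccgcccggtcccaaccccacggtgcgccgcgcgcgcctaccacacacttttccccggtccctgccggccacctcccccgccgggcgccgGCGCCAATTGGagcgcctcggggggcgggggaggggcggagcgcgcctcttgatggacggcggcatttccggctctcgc

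RefSeq promoter entries were matched for 35 of the 41 genes. MCM4, MCM5, GINS4, POLD3, RPA2 and RPA3 were not matched. An E2F form was found in the 250 bases of 15 of the 35 (42.9%), against 7.81% of all 35116 promoters in the table. CCAAT was found in 19 of 35 (54.3%, against 32%), and TTTGAA, the cell cycle homology element of many mitotic genes, in 0 of 35 (13.3% of all promoters). Of the 11 genes with an entry that were lower in EZH2-/- than in EZH2+/+ with the replicate block described below, 6 held an E2F form, as did 9 of the 24 others. These are matches of letters and do not show binding.

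In EZH2+/+ cells, levels were compared between genes only per kilobase of annotated exon. The length merges the exons of all annotated transcripts of a gene, and the reads were counted on an earlier annotation. The order of genes therefore also depends on how many transcript forms are annotated. PCNA, the sliding clamp, was highest at 115 ± 12.5 RPM per kb (SD, n = 3), followed by MCM3 at 76.9 ± 8.56 and MCM7 at 52.1 ± 4.68 RPM per kb. These 3 did not overlap with their next lower neighbour, except MCM7, whose libraries overlapped those of FEN1 (44.4 ± 6.52 RPM per kb). FEN1 overlaps FADS2, on the same strand and at a mean of 218 RPM, by 4265 bases. GINS3 (2.95 ± 0.62 RPM per kb), ORC5 and ORC4 were lowest and overlapped each other in order. In the rest of the order the libraries of neighbours overlapped, except those of PRIM2 and POLA2.

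The comparison of EZH2-/- with EZH2-/- +EZH2 cells sets the mutant beside mutant cells in which doxycycline induced EZH2 above its EZH2+/+ level. The drug and the return of EZH2 cannot be told apart in it. By limma on log2(RPM + 0.1), over the 20608 genes tested, 1 of the 41 replication genes, CDC7, was lower in EZH2-/- at an adjusted p under 0.05 and 0 were higher. The background was 0.524% of all genes tested called lower and 2.63% called higher. At an unadjusted p under 0.05, 7 were lower and 0 higher, against 6% of all genes lower and 10.8% higher. The median log2 fold change of the 41 genes was -0.14, beside 0.02 for all genes tested, and 30 of 41 were below 0. All 3 EZH2-/- libraries lay below all 3 rescued libraries for 11 of the 41 genes, against 9.70% of all genes tested, and all lay above for 0 genes, against 13.5%.

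Libraries with the same replicate number deviated together across genotypes, so the fit was repeated with the replicate number as a block. With this replicate block the EZH2-/- cells had 6 genes below the rescued level (CDC7, POLD3, PRIM1, RFC4, RPA1 and RPA3), against a background of 3.21% of all genes. None was higher in this fit, against 6.19% of all genes.

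The comparison of EZH2-/- with EZH2+/+ cells asks how the mutant differs from its unedited parent. By limma 9 of 41 replication genes were lower (CDC7, LIG1, ORC3, POLD3, PRIM1, RFC1, RFC4, RFC5 and RPA1) and 0 were higher, against a background of 18.8% of all genes lower and 12.6% higher. The share of the 41 that was lower is thus close to the background. With the replicate block 15 were lower, against 28.0% of all genes, the added genes being GINS4, MCM2, POLE2, PRIM2, RPA2 and RPA3. The median log2 fold change was -0.24, beside -0.13 for all genes tested, and the EZH2-/- libraries lay below the EZH2+/+ libraries without overlap for 16 of 41 genes (29.2% of all genes). Median-ratio rescaling moved the median of all genes by 0.12 on the log2 scale; after it 6 genes were lower (CDC7, LIG1, POLD3, PRIM1, RFC4 and RPA1), near the background of 13.7% of all genes, the median of the 41 was -0.12, and ORC1, ORC6, CDT1, MCM4, MCM7 and POLA2 turned in sign. The same rescaling changed the share of all called genes that were higher from 40.1% to 54.5%.

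In EZH2-/+ against EZH2+/+ cells limma called 0 of 41 genes, against 0.966% of all genes lower, and voom and the replicate block each called 0. At an unadjusted p under 0.05, 1 was lower (CDC7), against 8.11% of all genes. In EZH2-/- +EZH2 against EZH2+/+ cells limma called 0 genes, against 6.90% of all genes lower, with 0 called by voom. At an unadjusted p under 0.05, 3 were lower, against 18% of all genes. With the replicate block CDC7, POLD3 and RPA1 were lower in that comparison, against 16.1% of all genes. The comparisons with EZH2+/+ share its libraries, as those with EZH2-/- share theirs. The all-gene median in these 2 comparisons moved by 0.10 and 0.15 on rescaling, 14 and 13 of the 41 genes turned in sign, and the share of all called genes that were higher rose from 15.7% to 31.3% and from 33% to 54.0%. By genotype means EZH2-/- was the lowest of the 4 for 31 of 41 genes (75.6%), as it was for 38.9% of all genes tested. The rescued mean lay between the EZH2-/- and EZH2+/+ means for 25 of 41 (61.0%, against 35.9%).

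**Figure D1:**
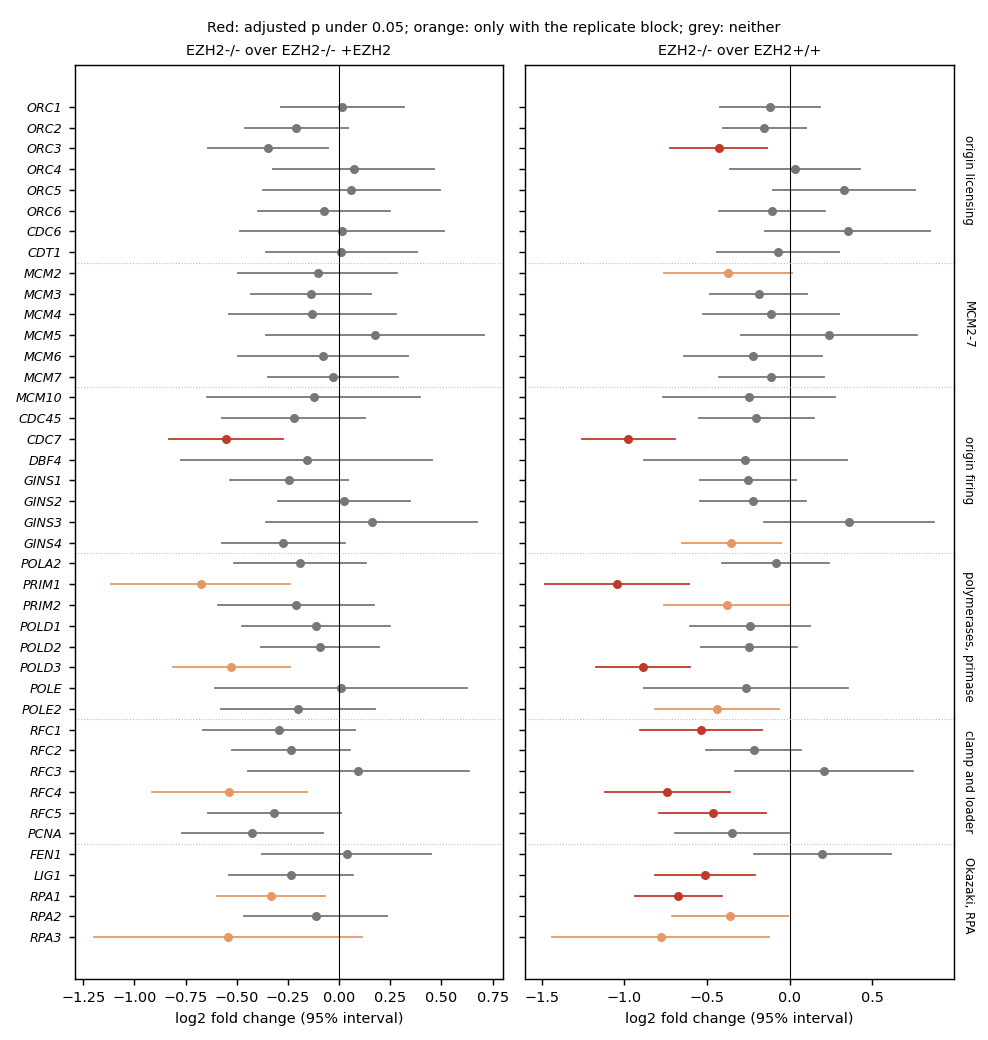
Log2 fold changes of the 41 replication genes with 95% intervals from limma without the block, on the x axis, for EZH2-/- over EZH2-/- +EZH2 (left) and over EZH2+/+ (right), with genes in order of role on the y axis. CDC7 is the 1 red gene on the left, 9 genes are red on the right, and no gene lies above 0 beyond its interval in either panel.

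Among licensing genes, ORC3, a subunit of the origin recognition complex, was at 58.3, 57 and 50.2 RPM in EZH2+/+, 44.2, 37.6 and 41.1 in EZH2-/- and 45.9, 58.3 and 52.6 in rescued cells. Its EZH2-/- libraries were all below both other genotypes. It fell by 0.43 ± 0.14 (SE) on the log2 scale from EZH2+/+ to EZH2-/- (limma adjusted p = 0.0298, 0.104 after rescaling and 0.0569 with voom), and the change against EZH2-/- +EZH2 was -0.35 (adjusted p = 0.207). The other ORC genes did not pass the test, with log2 changes against EZH2+/+ from -0.15 (ORC2) to 0.33 (ORC5, 95% interval -0.10 to 0.76). CDC6, which loads the helicase, was at 92.9, 67.2 and 79.9 RPM in EZH2+/+ and 96.9, 83.3 and 128 RPM in EZH2-/-, groups that overlap (log2 change 0.35, 95% interval -0.15 to 0.85). CDT1, its partner in loading, changed by -0.07 (interval -0.44 to 0.30).

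None of the 6 helicase genes MCM2 to MCM7 passed limma without the block in any of the 4 comparisons, at an adjusted p under 0.05. MCM2 was at 205, 154 and 163 RPM in EZH2+/+ and 139, 127 and 134 RPM in EZH2-/-. The groups did not overlap, and its log2 change of -0.37 had an adjusted p of 0.131 by limma and of 0.0231 with the replicate block. MCM6 was at 188, 165 and 186 RPM in EZH2+/+ and 161, 141 and 160 RPM in EZH2-/- (log2 change -0.22, interval -0.64 to 0.19). MCM5 was at 186, 125 and 156 RPM in EZH2+/+ and 179, 169 and 198 RPM in EZH2-/-, with a log2 change of 0.24 (interval -0.29 to 0.77). The intervals of MCM2 and MCM6 include a decrease as large as that of RFC5. EZH2-/+ replicate 3 was low for this group, with MCM5 at 113 RPM against 239 and 184 RPM in the other EZH2-/+ libraries, and 31 of the 41 genes lay below their EZH2-/+ mean in it.

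Among firing genes, CDC7, the catalytic subunit of the kinase that activates the loaded helicase, was at 62.3, 62.2 and 56.3 RPM in EZH2+/+, 49.0, 46.2 and 51.1 in EZH2-/+, 35.2, 29.4 and 27.6 in EZH2-/- and 41.1, 45.6 and 48.2 in rescued cells. The EZH2-/- libraries were below all others and the EZH2+/+ libraries above all others, with the remaining genotypes between them. From EZH2+/+ to EZH2-/- it fell by 0.97 ± 0.13 on the log2 scale (limma adjusted p = 0.000242), and from EZH2-/- +EZH2 to EZH2-/- it fell by 0.55 ± 0.13 (limma adjusted p = 0.0385, and 0.0158 with the block). The rescued libraries remained below EZH2+/+ by a log2 change of -0.42 (adjusted p = 0.057, and 0.0246 with the block). DBF4, the activating subunit of the same kinase, changed by -0.27 against EZH2+/+ (interval -0.88 to 0.35). GINS4, a subunit of the GINS complex, was at 46.5, 38.3 and 43.7 RPM in EZH2+/+ and 36.2, 30.4 and 33.9 RPM in EZH2-/-, and its log2 change of -0.35 passed with the block only (adjusted p = 0.0266, against 0.0711). GINS1, GINS2, GINS3, CDC45 and MCM10 did not pass in either fit.

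The CDC7 call against the rescued cells was near the threshold, while its log2 change varied little. The call was kept without EZH2-/- replicate 1 (log2 change -0.65) and lost when any of the other 5 libraries was left out, with the log2 change between -0.62 and -0.48. The call was also lost with voom (log2 change -0.54, adjusted p = 0.0851) and with only the 2 genotypes in the fit (log2 change -0.55, adjusted p = 0.11). Over its alternatives the decrease against EZH2+/+ stayed between -1.08 and -0.85.

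**Figure D2:**
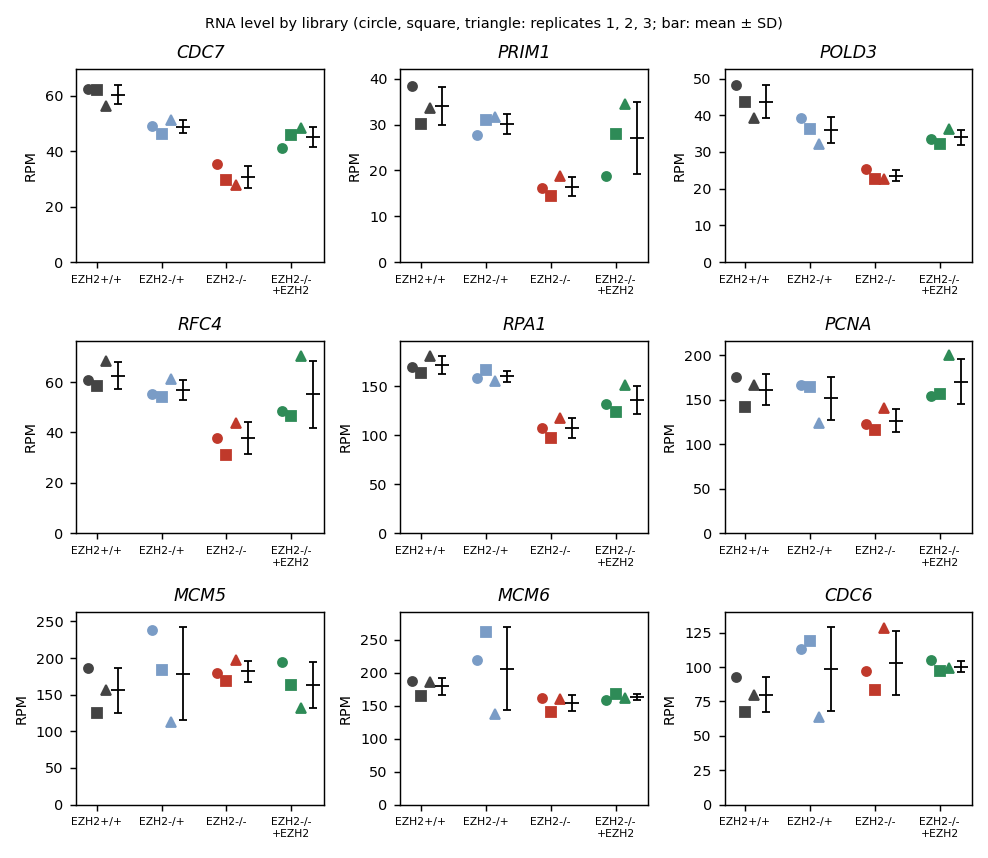
RPM (y axis) of 9 replication genes in each of the 12 libraries, by genotype (x axis), with replicates 1, 2 and 3 as circle, square and triangle and the mean ± SD beside them. For CDC7 and POLD3 the EZH2-/- libraries lie below all others, whereas for MCM5, MCM6 and CDC6 the EZH2-/+ libraries spread over a wide range.

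Among polymerase genes, PRIM1, the catalytic primase subunit, was at 38.5, 30.2 and 33.7 RPM in EZH2+/+, 27.7, 31.1 and 31.6 in EZH2-/+, 16.2, 14.5 and 18.7 in EZH2-/- and 18.8, 28.0 and 34.5 in rescued cells. Its EZH2-/- libraries were all low, and 1 rescued library was almost as low. It fell by 1.05 ± 0.20 on the log2 scale against EZH2+/+ (limma adjusted p = 0.00228). Against EZH2-/- +EZH2 the change was -0.68 (adjusted p = 0.096 by limma, 0.0355 with the replicate block and 0.0261 without EZH2-/- +EZH2 replicate 1). PRIM1 overlaps NACA, on the same strand and at a mean of 571 RPM, by 33 bases. PRIM2, the other primase subunit, changed by -0.38 against EZH2+/+ (adjusted p = 0.116, and 0.0147 with the block).

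POLD3, an accessory subunit of polymerase delta, was at 48.2, 43.6 and 39.2 RPM in EZH2+/+, 25.3, 22.6 and 22.7 in EZH2-/- and 33.6, 32.1 and 36.2 in rescued cells, with no overlap between these genotypes. It fell by 0.88 ± 0.13 against EZH2+/+ (limma adjusted p = 0.000467). Against EZH2-/- +EZH2 the log2 change was -0.53, with an adjusted p of 0.05001 just above the threshold by limma and of 0.0133 with the block. The catalytic subunit POLD1 and the subunit POLD2 changed by -0.24 each against EZH2+/+, and neither passed. POLE, the catalytic subunit of polymerase epsilon, was at 94.3, 67.8 and 57.4 RPM in EZH2+/+ and 71.1, 59.7 and 50.0 RPM in EZH2-/- (log2 change -0.26, interval -0.88 to 0.35). POLE2, its partner subunit, changed by -0.44 (adjusted p = 0.0725, and 0.0464 with the block).

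The clamp loader RFC places the PCNA clamp on DNA. RFC4 was at 60.9, 58.2 and 68.5 RPM in EZH2+/+, 37.9, 31.1 and 43.9 in EZH2-/- and 48.7, 46.4 and 70.1 in rescued cells. The EZH2-/- libraries were below all of the others. It fell by 0.74 ± 0.17 against EZH2+/+ (limma adjusted p = 0.0071), and the change against EZH2-/- +EZH2 was -0.54 (adjusted p = 0.128 by limma and 0.0136 with the block). RFC1 fell by 0.53 ± 0.17 (adjusted p = 0.0309) and RFC5 by 0.47 ± 0.15 (adjusted p = 0.0323) against EZH2+/+ by limma, and after rescaling neither passed (adjusted p = 0.0704 and 0.131). RFC1 did not pass with voom either (adjusted p = 0.0646). RFC2 and RFC3 changed by -0.22 and 0.21. PCNA was at 175, 142 and 167 RPM in EZH2+/+, 123, 116 and 141 in EZH2-/- and 155, 157 and 200 in rescued cells. The EZH2-/- libraries were below both, but the log2 changes of -0.35 and -0.42 did not pass (adjusted p = 0.114 and 0.191 by limma).

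RPA coats single-stranded DNA at the fork. Its large subunit RPA1 was at 170, 164 and 182 RPM in EZH2+/+, 108, 97.8 and 118 in EZH2-/- and 132, 124 and 152 in rescued cells. The genotypes did not overlap. It fell by 0.67 ± 0.12 against EZH2+/+ (limma adjusted p = 0.00159), and the change against EZH2-/- +EZH2 was -0.33 (adjusted p = 0.18, and 0.0477 with the block). RPA3 was at 31.1, 31.4 and 50.8 RPM in EZH2+/+ and 19.6, 18.2 and 27.2 RPM in EZH2-/-. Replicate 3 was the highest library in every genotype, and the log2 change of -0.78 had an adjusted p of 0.0672 by limma and 0.000287 with the block. RPA3 overlaps UMAD1, on the other strand, by 77897 bases, and counting did not use strand. LIG1, the ligase of Okazaki fragments, fell by 0.51 ± 0.14 against EZH2+/+ (limma adjusted p = 0.015). FEN1, the flap nuclease, which overlaps FADS2 on the same strand, changed by 0.20 (interval -0.21 to 0.61).

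**Figure D3:**
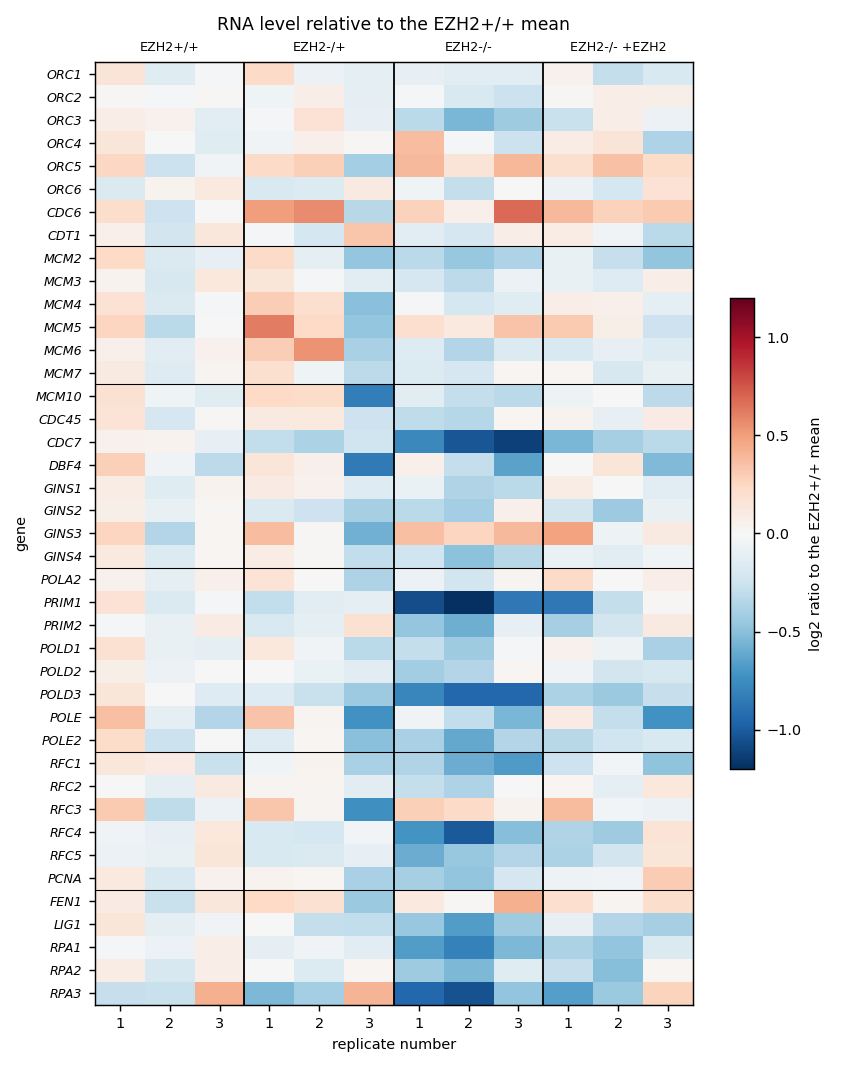
Log2 ratio of each replication gene to its EZH2+/+ mean (colour), with genes as rows in order of role and the 12 libraries as columns by genotype and replicate number. The EZH2-/- columns are darkest blue for CDC7, PRIM1, POLD3, RFC4, RPA1 and RPA3, and EZH2-/+ replicate 3 is blue for most MCM genes.

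Other genes of the cell cycle and DNA synthesis are given as fixed lists. Beside them, limma called 0.524% of all genes tested lower and 2.63% higher in EZH2-/- than in EZH2-/- +EZH2. Against EZH2+/+ these shares were 18.8% and 12.6%. Of 28 other origin and fork genes, 1 was lower in EZH2-/- than in EZH2-/- +EZH2 and 9 lower than in EZH2+/+, with 0 higher in either by limma. TIMELESS, a fork protection factor, fell by 0.54 ± 0.13 against EZH2-/- +EZH2 (limma adjusted p = 0.0443) and by 1.30 ± 0.13 against EZH2+/+ (adjusted p = 4.35e-05). DNA2, a nuclease, and TOP2A, a topoisomerase, fell by 0.76 and 0.91 against EZH2+/+. Of 8 nucleotide supply genes 1 was lower in the former comparison and 3 in the latter. TYMS, thymidylate synthase, fell by 0.71 ± 0.14 (adjusted p = 0.0173) and 0.99 ± 0.14 (adjusted p = 0.000341), both by limma. Of 8 chromatin assembly genes, CHAF1B and NASP each fell by 0.63 against EZH2+/+.

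Of 20 mitosis genes, 1 was lower in EZH2-/- than in EZH2-/- +EZH2 (0.524% of all genes) and 10 lower than in EZH2+/+ (18.8% of all genes). Their median log2 changes of -0.26 and -0.64 were further below 0 than the -0.14 and -0.24 of the replication genes. BUB1, a spindle checkpoint kinase, fell by 0.79 ± 0.14 (limma adjusted p = 0.0114) and 0.86 ± 0.14 (adjusted p = 0.000782). Of 31 regulators of G1 and S phase, 4 were higher and 0 lower against EZH2-/- +EZH2 (2.63% and 0.524% of all genes). Against EZH2+/+, 5 were higher and 6 lower (12.6% and 18.8% of all genes). CDKN2A, which encodes inhibitors of the cell cycle, was at 13 ± 2.64 RPM (SD, n = 3) in EZH2-/-, 2.07 ± 0.55 RPM in EZH2-/- +EZH2 and 0.41 ± 0.07 RPM in EZH2+/+. Its log2 change against EZH2-/- +EZH2 was 2.60 ± 0.32 (limma adjusted p = 0.00179). CDKN2B and CDKN2C were the other inhibitors called higher against EZH2-/- +EZH2, both from very low levels. CDKN2C had 0 reads in every rescued library and at most 28 reads in any library. Its EZH2-/- libraries held only 0.49, 0.43 and 0.33 RPM, so the size of its rise depends on the pseudocount of 0.1 RPM. Rescued libraries held CDKN2B at 0.15, 0.13 and 0.12 RPM, while EZH2-/- libraries varied widely (1.27, 9.37 and 3.41 RPM). CCND1, a cyclin of G1, rose by 0.81 ± 0.16 against EZH2-/- +EZH2 (limma adjusted p = 0.0204). The rescued level of CCND1 (91.6 ± 16.0 RPM) lay below EZH2+/+ (132 ± 4.35 RPM), and its log2 change of 0.26 from EZH2+/+ to EZH2-/- did not pass (limma adjusted p = 0.245).

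At promoters, each gene was given the 5-kb window with its highest H3K4me3 in EZH2+/+ cells, and each mark had 1 deposited value per genotype, so no test was possible. For 19 of the 41 genes that window also held the start of another named gene, as VPS35 for ORC6 and UMAD1 for RPA3. Signal in such windows cannot be given to the replication gene alone. In EZH2+/+ the median H3K4me3, a mark of active promoters, was 11 RPM at the 41 genes and 4.95 RPM over all 35684 gene names. H3K27me3 was lower at the replication genes (median 1.25 RPM, against 1.83 RPM). A log2 decrease of H3K4me3 of 1 or more from EZH2+/+ to EZH2-/- occurred at 0 of 41 genes, against 12.2% of all gene names, and CDC7 had the lowest change (-0.39, from 12.7 to 9.61 RPM). CDC7 was also lowest against EZH2-/- +EZH2 (-0.19, from 10.9 RPM). Windows were chosen by H3K4me3 in EZH2+/+, where the 41 genes also have more signal, so these 2 shares are not like for like. From EZH2+/+ to EZH2-/+ the median H3K4me3 change was 0.43, with 39 of 41 above 0 (median of all gene names 0.14). Shifts of a whole column can thus be as large as the CDC7 change. H3K27ac rose by 1 or more at ORC6 and RPA3 (1.03 each), which is 2 of 41 against 9.34% of all gene names, and its median change of 0.36 was near that of all gene names (0.34). Against EZH2-/- +EZH2 it rose by 1 or more at 0 of 41 genes (3.6% of all gene names), with a median change of -0.04. From EZH2+/+ to EZH2-/- +EZH2 the median H3K27ac change was 0.40, with 0.80 at ORC6 and 0.63 at RPA3.

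H3K27me3 fell by 1 or more from EZH2+/+ to EZH2-/- at 10 of 41 genes, against 45.2% of all gene names, and from EZH2-/- +EZH2 to EZH2-/- at 6 of 41, against 36.0%. POLE stood apart. Its window (chr12:132684828-132689828, GRCh38) held 10.0 RPM of H3K27me3 in EZH2+/+, 12.5 RPM in EZH2-/+, 1.12 in EZH2-/- and 9.49 in rescued cells, a log2 change of -3.06 from EZH2+/+ to EZH2-/-. The EZH2 ChIP, made in EZH2+/+ cells only, gave 4.97 RPM there, beside an H3K4me3 of 12.9 RPM. The starts of PXMP2 and RP13-672B3.2 lie in the same window, so the signal cannot be given to POLE alone. Next were RPA2, GINS3 and GINS2 at 4.66, 4.58 and 4.46 RPM of H3K27me3, with EZH2 at 0.30, 0.23 and 0.31 RPM. By EZH2 signal the next after POLE was MCM7 at 1.57 RPM, although its H3K27me3 in EZH2+/+ was only 0.73 RPM. The start of AP4M1 lies in the MCM7 window. The CDC7 window had 1.78 RPM of H3K27me3 in EZH2+/+, beside 1.60 RPM of input (chromatin not precipitated), and 0.39 RPM of EZH2. PRIM1 was the 1 gene of those lower against EZH2-/- +EZH2 with the block whose H3K27me3 fell by 1 or more against EZH2+/+. Its H3K27me3 in EZH2+/+ was 1.70 RPM, near the input of 1.42 RPM, and its window also holds the start of HSD17B6. From EZH2+/+ to EZH2-/-, H3K27me3 rose by 1 or more at MCM3 (0.53 to 1.33 RPM) and MCM7 (0.73 to 1.80 RPM). These are low values: in EZH2+/+ both lay below their input (1.69 and 0.92 RPM). Input in EZH2-/- was 1.30 and 0.79 RPM. The share of all gene names with such a rise is not given here. Whether these rises are a gain of the mark or an effect of scaling to the total was not tested.

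**Figure D4:**
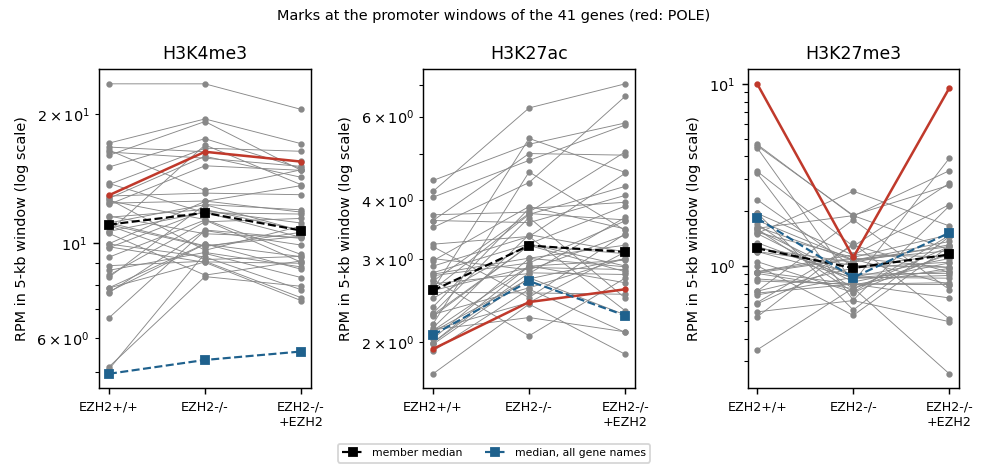
RPM in the chosen window (y axis, log scale) of H3K4me3, H3K27ac and H3K27me3 in EZH2+/+, EZH2-/- and EZH2-/- +EZH2 cells (x axis), with 1 grey line per replication gene, POLE in red and squares for the medians of the 41 genes and of all gene names. POLE falls from 10.0 to 1.12 RPM of H3K27me3 and is at 9.49 RPM in the rescued cells.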

How the data were processed

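RNA was measured in 12 libraries (poly(A) kit without strand) and histone marks by ChIP-seq. The values deposited are log2 RPM. Per the labels and methods, the authors trimmed reads (Trim Galore 0.4.0), mapped them to GRCh38 (TopHat2 2.0.12 for RNA, Bowtie2 2.2.5 for ChIP) and quantified them in SeqMonk, RNA per gene without regard to strand. The ChIP columns hold 1 value per genotype and mark.

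Log2 values were returned to RPM. Values under 1000 reads were whole multiples of 1 read to within 0.01 reads in 100% of cases, and genes with no read, stored at 0.9 of a read, were set to 0. The 20608 genes averaging 0.1 RPM or more were fitted with limma 3.58.1 (R 4.3.3) on log2(RPM + 0.1), all 4 genotypes together, trend on, with p-values adjusted over all of them (Benjamini-Hochberg). The fits were tested on simulated data with gene-specific spread and a shared replicate effect. Fold changes are on the log2(RPM + 0.1) scale. Nothing in the labels says that libraries of one genotype came from separate cultures, and the study calls them biological replicates.

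Replicate numbers largely pair libraries by their data. The correlation of deviations from the genotype means was over 0.1 for all 18 same-numbered pairs (0.11 to 0.56). For other pairs it ran from -0.49 to 0.24 with a mean of -0.16, so the ranges overlap. Deviations sum to 0 within a genotype, so that lower mean is no separate evidence. Of the 12 libraries 11 were closest to their own number, and the labels do not say what a number marks. Alternatives were other pseudocounts (0.01, 1), filters (none, 1 RPM), median-ratio scaling, the block, only the 2 genotypes compared, voom on recovered reads and leaving out each library.

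The members, gene lists and tests were chosen with earlier results of these data known. Full statistics are given for replication genes with an adjusted p under 0.05 in any comparison, then by smallest p against EZH2-/- +EZH2 up to 12, and for at most 5 genes of each other list. Genes shown outside this rule (CDC6, MCM2, MCM5, MCM6, POLE, RPA3 and others with intervals) were chosen after their values were seen. Exon lengths are from GENCODE v44 (GRCh38). Of the 41 genes 19 overlap another listed gene. Values of some list genes are not reported here.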

Additional observations from a re-analysis of the deposited data

How the results depend on the processing

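Of 4 counts of replication genes, the one for EZH2-/+ against EZH2+/+ stayed at 0 under every alternative run. Against EZH2-/- +EZH2 the count of 1 became 2 with a pseudocount of 1 RPM, with no filter and with median-ratio rescaling, 6 with the replicate block, and 0 with only the 2 genotypes in the fit or with voom. Leaving out 1 library gave 0 to 1, and without EZH2-/- +EZH2 replicate 1 the 1 gene called was PRIM1, not CDC7. Against EZH2+/+ the count of 9 became 15 with the replicate block, 10 with only the 2 genotypes in the fit, 8 with no filter, 7 with voom and 6 with rescaling, and leaving out 1 library gave 5 to 9, with 5 without EZH2+/+ replicate 1 and without EZH2-/- replicate 2. For EZH2-/- +EZH2 against EZH2+/+ the count of 0 became 1 with no filter and 3 with the replicate block. The cause was not tested. All called replication genes were lower in each of these settings.

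Log2 changes near 0 that turned in sign were these. After rescaling, EZH2-/+ against EZH2+/+ was 0.0026 (RPA1), 0.0014 (PCNA) and 0.044 (GINS4), and EZH2-/- +EZH2 against EZH2+/+ was 0.066 (ORC3), 0.068 (GINS4) and 0.14 (GINS1), with voom giving 0.027 for GINS1. Leaving out 1 library gave, for EZH2-/+, ranges of -0.14 to 0.059 (GINS4), -0.067 to 0.079 (GINS1), -0.053 to 0.083 (ORC3), -0.24 to 0.0098 (RFC1) and -0.19 to 0.041 (PCNA). For EZH2-/- +EZH2 they were -0.077 to 0.052 (GINS1), -0.047 to 0.14 (PCNA) and -0.16 to 0.0083 (ORC3).

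Centring each promoter mark on all gene names moved the median change of the 41 genes from EZH2+/+ to EZH2-/- to 0.020 for H3K27ac, -0.14 for H3K4me1 and 0.42 for H3K27me3, and from EZH2-/- +EZH2 to 0.026 for H3K4me3, -0.20 for H3K27ac, -0.041 for H3K4me1 and 0.35 for H3K27me3. With 3 libraries a genotype, intervals of most genes were wider than the median change. For promoters no separate replicate values were available, so their spread could not be given. The paper describes its H3K27me3 and H3K4me3 ChIP-seq data as averages over 3 biological replicates of each line.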
